A study of Mus musculus with 20 samples.

Results

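Transcripts of 7 genes of the surface mucous (pit) cell were followed in mouse gastric organoids: the gastrokines Gkn1, Gkn2 and Gkn3, the mucins Muc5ac and Muc1, the trefoil peptide Tff1 and the surface antigen Psca. They were chosen by gene symbol. All 7 were found among the 24047 genes of the count table, and all 7 passed the filter on low counts that left 13476 genes for testing.

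Pit cells line the gastric surface and the mouths of the glands and secrete the mucus gel that shields the epithelium from acid. Muc5ac is the gel-forming mucin of that layer, and Gkn1 and Gkn2 are small secreted proteins stored with it in the mucous granules. Tff1 is secreted beside Muc5ac, Muc1 is a mucin that spans the apical membrane, and Psca is a lipid-anchored protein of the gastric surface. Gkn3 belongs to the same family but has been described in mucous neck cells, which lie deeper in the gland and make Muc6 and Tff2.

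The organoids are epithelial cultures from stomach tissue of BL/6 mice, and all of them were kept in conditioned medium. mRNA was sequenced in 20 libraries from 8 organoid lines, the line being the number in front of the library title. Non-dysplastic wild-type (WT) organoids came from lines 300 and 1269 (2 libraries each), and dysplastic WT organoids from lines 565 and 752 (3 libraries each). Line 650 was a p53 knockout (KO) made in vivo and line 1270 a p53 KO made ex vivo, both non-dysplastic with 2 libraries each. The dysplastic KO organoids came from lines 794 and 801 (3 libraries each), whose KO was made in vivo. The ages of the animals, the means of deleting p53, whether a line is a clone and whether lines came from separate animals are not stated in the sources used. The p-values of edgeR and DESeq2, on summed lines, therefore refer to the spread among these 8 lines, part of which may be technical. Those of limma-voom come from the 20 libraries, with lines as correlated blocks (correlation 0.22), and so rest partly on libraries of the same line.

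Library totals ran from 5.67e6 to 16.3e6 counts, and line totals from 22.2e6 to 36.9e6. Levels are given as CPM, counts relative to a library total of 1e6 with edgeR's TMM scaling between libraries, and values per line are from its summed libraries. Trp53, the gene for p53, read 137 ± 24.0 CPM in the WT lines and 15.3 ± 10.9 CPM in the KO lines (SD, n = 4 each). In 6 libraries (300-2, 650-2, 565-3, 752-3, 794-3 and 801-3) the deviation of a gene from its mean over all 20 libraries fell with its exon length. The correlations across genes were between -0.61 and -0.44, against 0.0025 to 0.54 in the other 14. Libraries 1270-1 and 1270-2 also stood apart from each other. Of the defining markers of other cell types, the parietal cell gene Atp4b was listed at 0 in all 20 libraries and the leukocyte gene Ptprc was at most 1.57 CPM. The summed listed markers, however, ran over the libraries from 73.8 to 287 CPM for parietal and from 39.5 to 173 CPM for immune cells. Sums of stromal, intestinal and squamous markers reached 212, 436 and 1348 CPM.

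Gkn1, Gkn2 and Gkn3 are neighbouring genes on chromosome 6. The 250 bases before each start are shown because, over the 8 lines, the levels of Gkn1 and Gkn2 moved together and those of Gkn3 did not. They are from RefSeq, build GRCm38.p6, which also held a promoter of Muc1, so that 4 of the 7 genes were matched. They lie at chr6:87350916-87351165 (minus strand) for Gkn1, chr6:87373115-87373364 (plus strand) for Gkn2 and chr6:87388936-87389185 (minus strand) for Gkn3. They are written 5′ to 3′ along the gene, with capitals for GATAA, the core read by GATA factors, and for the TATA box letters TATAAA, each searched on both strands.
Gkn1: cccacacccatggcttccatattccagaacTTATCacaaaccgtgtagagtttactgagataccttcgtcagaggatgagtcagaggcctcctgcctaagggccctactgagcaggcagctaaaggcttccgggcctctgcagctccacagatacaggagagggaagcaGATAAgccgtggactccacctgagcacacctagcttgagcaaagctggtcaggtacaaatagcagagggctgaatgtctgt
Gkn2: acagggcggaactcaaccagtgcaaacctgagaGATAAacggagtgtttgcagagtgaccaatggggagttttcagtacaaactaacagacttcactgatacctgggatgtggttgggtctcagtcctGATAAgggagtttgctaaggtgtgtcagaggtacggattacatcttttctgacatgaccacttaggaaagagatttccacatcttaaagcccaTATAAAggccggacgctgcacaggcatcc
Gkn3: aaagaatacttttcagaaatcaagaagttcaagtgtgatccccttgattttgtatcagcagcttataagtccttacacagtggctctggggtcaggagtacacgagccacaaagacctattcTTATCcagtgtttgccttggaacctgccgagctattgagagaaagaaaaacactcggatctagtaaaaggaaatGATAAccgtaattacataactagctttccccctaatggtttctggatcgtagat
Each of the 3 windows held GATAA at 2 places, and Gkn2 also held 1 TATAAA, whose first base lies 29 bases before the start. GATAA occurred in 22.6% and TATAAA in 12.4% of the 32851 windows of 250 bases in the RefSeq table, and the Muc1 window held 1 TATAAA and no GATAA. These are matches of letters only.

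The 7 genes did not vary as a unit: Gkn1, Gkn2 and Muc5ac were high in line 794 and in 1 of the 2 libraries of line 1270 and low elsewhere, while Gkn3 and Muc1 were high in every line, Psca was lower in the dysplastic lines and Tff1 was barely detected. Over the lines, the SD of log2(CPM + 1) was 2.84 for Muc5ac, 2.42 for Gkn1 and 2.10 for Gkn2. Among 10457 genes with a mean of at least 5 CPM these were the SDs of rank 3, 8 and 21 from the largest, the median being 0.21. Gkn3 (0.95, rank 305) and Psca (0.91, rank 339) varied less, and Muc1 (0.29, rank 3161) varied least of the 6 that reached that mean. Muc5ac reached it only through lines 794 and 1270.

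**Figure D1:**
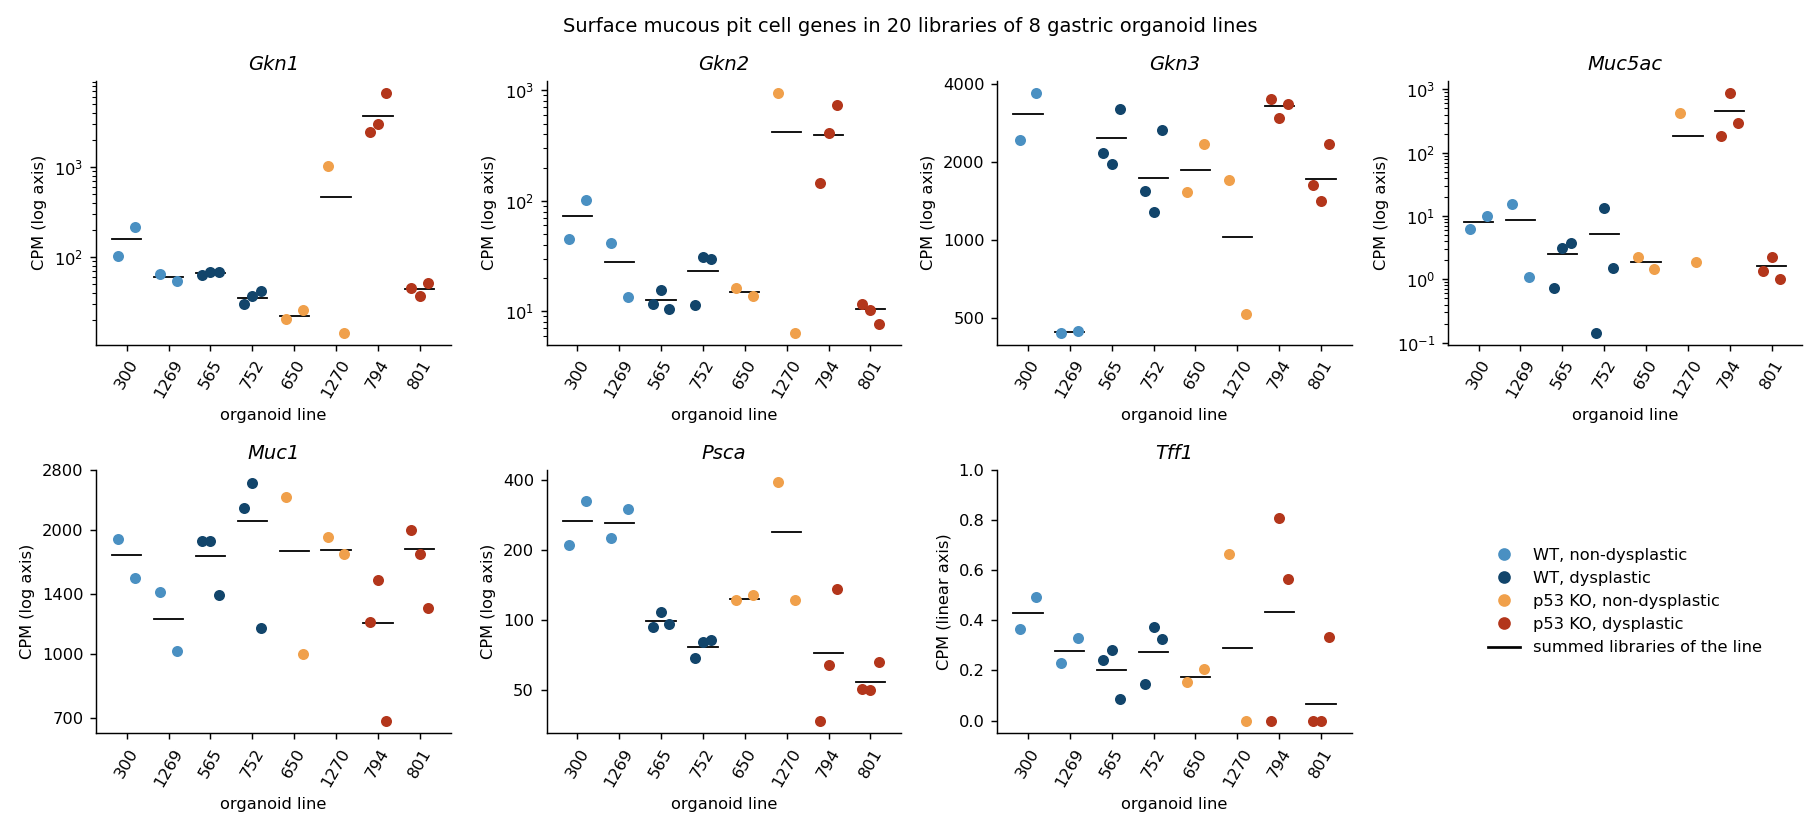
Level of each pit cell gene in CPM (vertical axis, logarithmic except for Tff1) in each library (points) by organoid line (horizontal axis), coloured by genotype and dysplasia, with a black bar for the summed libraries of the line. Gkn1, Gkn2 and Muc5ac are high in the 3 libraries of line 794 and in 1 of the 2 libraries of line 1270, Psca is lower in the dysplastic lines, and Tff1 stays under 1 CPM.

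Gkn1, a gastrokine of the mature pit cell, reached its highest level in the dysplastic KO line 794, at 3758 CPM. It read 2443, 3061 and 6704 CPM in the 3 libraries of that line. The ex vivo KO line 1270 held 463 CPM, and its libraries read 1038 and 14.5 CPM. Its libraries thus lay toward opposite ends of the range of the series. The WT non-dysplastic lines 300 and 1269 had 160 and 59.8 CPM, and the WT dysplastic lines 565 and 752 had 67.2 and 35.6 CPM. The remaining KO lines were as low or lower, with 22.4 CPM in line 650 and 43.8 CPM in line 801. The highest line thus stood 168-fold above the lowest, and both were KO lines. Libraries of the same line were closest for Gkn1 in line 565, with 64.2, 68.4 and 68.2 CPM, while those of line 300 read 103 and 219 CPM.

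Gkn2, which binds Tff1 in the pit cell's mucus, was high in the same 2 lines. Line 1270 read 417 CPM and line 794 read 390 CPM. The other lines held 72.7 (300), 28.0 (1269), 12.5 (565), 23.2 (752), 15.0 (650) and 10.5 CPM (801), all below these 2. Within line 794 the libraries read 144, 407 and 738 CPM. The ratio of Gkn1 to Gkn2 in CPM was between 7.52 and 17.0 in the libraries of line 794 and 1.10 in library 1270-1, so that the 2 lines did not share the balance of the 2 gastrokines. In the other 16 libraries this ratio ran from 1.17 to 6.70.

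Muc5ac, the mucin of the surface gel, had the widest range of the 7. It read 460 CPM in line 794 and 185 CPM in line 1270. In the WT lines it stood at 8.16 (300), 8.54 (1269), 2.50 (565) and 5.29 CPM (752), and in the KO lines 650 and 801 at 1.86 and 1.63 CPM. The 3 libraries of line 794 held 182, 877 and 298 CPM. Outside line 794, library 1270-1 at 421 CPM was the only one above 15.6 CPM.

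Gkn3 had the highest mean level over lines per length of transcript, at 2276 CPM per kb of exon, against 744 for Muc1, 461 for Gkn1, 173 for Psca, 154 for Gkn2, 7.83 for Muc5ac and 0.38 for Tff1. In line 1269 Muc1 (544 CPM per kb) was above Gkn3 (514). The mean of Gkn1 was mostly that of line 794 (3006 CPM per kb). In the 6 lines other than 794 and 1270 it read 17.9 to 128 CPM per kb, below Psca (62.8 to 309) in each. By line Gkn3 read 3060 CPM (300), 440 (1269), 2468 (565), 1729 (752), 1866 (650), 1025 (1270), 3290 (794) and 1713 CPM (801). It was high in line 794, as Gkn1 was, but also in line 300, and its low line was the WT line 1269, where both libraries stood at 438 and 445 CPM. In line 794 Gkn3 and Gkn1 were of the same order, the ratio of their CPM being 0.50 to 1.44, whereas in the 15 libraries of the lines other than 794 and 1270 it ran from 6.76 to 91.8.

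Muc1, the membrane mucin, ranged 1.77-fold over the lines, the least of the 7. Its SD of log2(CPM + 1), 0.29, was still above that of the median gene (0.21). Single libraries ran from 688 CPM (794-3) to 2595 CPM (752-2). It read 1736 (300), 1220 (1269), 1730 (565), 2107 (752), 1778 (650), 1794 (1270), 1188 (794) and 1798 CPM (801). Its 2 low lines were 794, in which Gkn1 and Muc5ac were highest, and 1269. In each of the 6 libraries that stood apart by gene length, Muc1 was the lowest library of its line, while Gkn1, Gkn3 and Psca were each the highest of the line in 5 of the 6. The exons of Muc1 sum to 2.24 kb and those of Gkn1, Gkn3 and Psca to 1.25, 0.86 and 0.86 kb. The shorter Gkn2 (0.788 kb) was the highest of its line in 2 and the lowest in 3 of the 6. Muc5ac, the longest (10.8 kb), was the highest in 2 and the lowest in 2. Beyond leaving these libraries out, the part of that shift in the differences between lines was not tested.

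Tff1, whose product is a standard marker of pit cells, had 2 to 15 counts per line and 0 to 10 per library. It was at 0 in libraries 1270-2, 794-1, 801-1 and 801-2, and a count of 0 allows up to 3 counts, which is 0.18 to 0.26 CPM in these 4. Line 794, with the most Gkn1, had 15 Tff1 counts, or 0.43 CPM, and line 801 had 2, or 0.065 CPM. At this depth no difference between groups could be shown, and no fold change is given. Its neighbours on chromosome 17 were counted: Tff2, the trefoil peptide of neck cells, read between 8.76 and 1603 CPM over the libraries, and Tff3, the intestinal trefoil peptide, at most 5.14 CPM.

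Psca had 266 (300), 260 (1269), 123 (650) and 238 CPM (1270) in the non-dysplastic lines. The dysplastic lines read 99.1 (565), 76.1 (752), 71.7 (794) and 54.0 CPM (801). Every dysplastic line was below every non-dysplastic line. Single libraries overlapped: 794-3 at 136 CPM was above 1270-2 (121 CPM), 650-1 (122 CPM) and 650-2 (128 CPM), while the other 11 dysplastic libraries were at most 108 CPM.

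The comparison of KO with WT lines addressed how loss of p53 bears on these genes, as the mean of both dysplasia classes. No member passed the test. EdgeR's quasi-likelihood test with Benjamini-Hochberg adjustment over 13476 genes called 0 of the 7 at 0.05, and 0 of all genes (0%), of which 543 had an unadjusted p under 0.05. DESeq2 on the same line sums called 0.549% of all genes and none of the 7, and limma-voom called 0.497% of 12671 genes and none of the 6 it tested, Tff1 having too few counts. Trp53 itself, at a log2 fold change of -3.17 ± 0.60 (SE), did not pass edgeR's test either (adjusted p 0.74), while DESeq2 (adjusted p 9.6e-07) and limma-voom (4.6e-05) called it.

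The log2 fold change of KO against WT was 4.69 ± 1.77 for Muc5ac, 3.18 ± 1.38 for Gkn1 and 2.79 ± 1.28 for Gkn2 (SE, edgeR adjusted p 1.00 for each, n = 4 lines per genotype). Muc5ac was the one member with an unadjusted p under 0.05 (0.034), as were 4.03% of all genes. The values came from 2 of the 4 KO lines: Gkn1 averaged 1072 ± 1802 CPM in the KO lines and 80.6 ± 54.5 CPM in the WT lines (SD, n = 4), and lines 650 and 801 lay within or below the WT range. Without lines 794 and 1270, a choice made after seeing the data, the fold changes were -1.26 for Gkn1, -1.25 for Gkn2 and -1.71 for Muc5ac. For Gkn1, Gkn2 and Muc5ac in turn, they were 0.46, 0.67 and 1.12 without line 794, 1.46, 0.87 and 1.86 without line 1270 and 1.31, 0.63 and 1.85 without library 1270-1. In limma-voom's fit to the libraries, with lines as correlated blocks, they were 1.09, 0.83 and 2.09.

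Psca was lower by 0.51 ± 0.23 on the log2 scale in the KO lines, and Gkn3 and Muc1 differed by -0.01 ± 0.58 and -0.04 ± 0.19 (SE, edgeR adjusted p 1.00 for each). None of the 7 had KO lines that were all above or all below the WT lines, as 2.38% of all genes did. Muc1 averaged 1698 ± 364 CPM in the WT lines and 1640 ± 301 CPM in the KO lines (SD, n = 4).

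**Figure D2:**
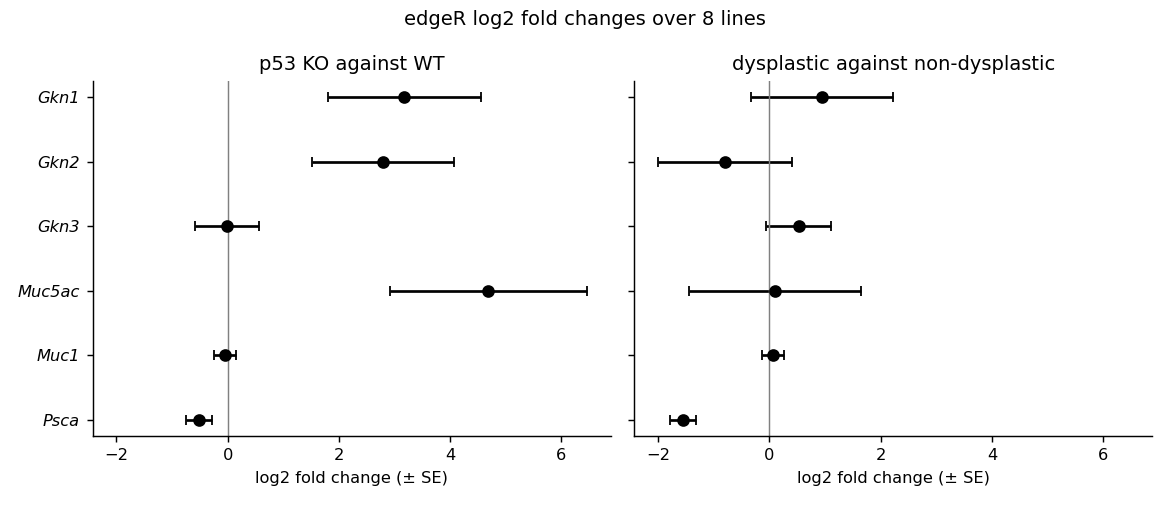
Log2 fold change (horizontal axis) with its SE (bars) for 6 pit cell genes in edgeR's fit over 8 lines, for p53 KO against WT and for dysplastic against non-dysplastic lines. Muc5ac, Gkn1 and Gkn2 are above 0 in the KO comparison with bars of more than 1 log2 unit to either side, and Psca is at -1.55 in the dysplasia comparison with a bar of 0.23.

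Dysplastic lines were compared with non-dysplastic lines, averaging the genotypes, and Psca was the only member that any fit called. It was called lower in DESeq2's and limma-voom's fits but did not pass edgeR's test. Its mean was 222 ± 67.0 CPM in the non-dysplastic and 75.2 ± 18.6 CPM in the dysplastic lines (SD, n = 4), a log2 fold change of -1.55 ± 0.23 (SE) with an unadjusted p of 3.5e-04 and an edgeR adjusted p of 0.42. EdgeR called 0 of 13476 genes (0%), of which 797 had an unadjusted p under 0.05, and Psca was the one member among these. DESeq2 called 1 of the 7 members, Psca, at an adjusted p of 1.2e-06, against 1.14% of all genes called, or 0.282% called lower. Limma-voom called the same 1 of 6 members at an adjusted p of 0.012, against 1.14% of all genes and 0.174% called lower. Psca was also the only one of the 7 whose dysplastic and non-dysplastic lines did not overlap, which held for 3.06% of all genes, and for 1.31% with the dysplastic lines lower.

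The lower Psca level held in each genotype. It was 263 ± 4.16 CPM in WT non-dysplastic against 87.6 ± 16.3 CPM in WT dysplastic lines, and 180 ± 81.2 CPM against 62.8 ± 12.5 CPM in the KO lines (SD, n = 2 lines each). Without the 6 libraries that stood apart the fold change was -1.62, without each line in turn it lay between -1.75 and -1.28, and with the sex of the line as a term it was -1.76. A line was taken as female where its Xist count was above that of the Y-linked Ddx3y. The 2 male lines, 300 and 650, were both non-dysplastic, so sex and dysplasia cannot be told apart in full.

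None of the other 6 members was called for dysplasia by any of these fits. Gkn1 differed by 0.94 ± 1.28, Gkn2 by -0.80 ± 1.20, Muc5ac by 0.10 ± 1.55, Gkn3 by 0.53 ± 0.58 and Muc1 by 0.06 ± 0.19 on the log2 scale (SE, edgeR adjusted p 1.00 for each). Each arm held 1 of the 2 high lines. Without line 794 the value was -1.78 for Gkn1 and -3.47 for Muc5ac, and without line 1270 that of Gkn2 was 1.12. Gkn3 kept its direction without each line in turn, with values from 0.12 without line 1269 to 1.52 without line 300, and was 1.69 with the sex of the line as a term.

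The effect of dysplasia in KO lines was also compared with that in WT lines. EdgeR's interaction test called 0 of the 7 and 0 of 13476 genes (0%), of which 241, and no member, had an unadjusted p under 0.05, and DESeq2 and limma-voom called none.

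The KO line made ex vivo, line 1270, is 1 line and was not tested against the KO lines made in vivo. Its 2 libraries differed in the secreted pit cell products more than in any other gene. Muc5ac had 5696 counts (421 CPM) in library 1270-1 and 31 (1.85 CPM) in 1270-2, a ratio of 228. Gkn2 had 12783 and 108 counts (944 and 6.43 CPM), a ratio of 147. Gkn1 had 14054 and 244 counts (1038 and 14.5 CPM), a ratio of 71.5. In log2(CPM + 1) these differences were 7.21, 6.99 and 6.06, the ranks 1, 2 and 3 from the top among 10480 genes with a mean of at least 5 CPM over the libraries. The gene of rank 4, Cyp2c55, a cytochrome P450, differed by 3.96. Thus library 1270-1 was among the 4 highest of the 20 for Gkn1, Gkn2 and Muc5ac, and 1270-2 was the lowest of all 20 for Gkn1 and Gkn2. The median difference was -0.06, and 18 genes differed by more than 3 either way, 13 of them higher in 1270-1.

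**Figure D3:**
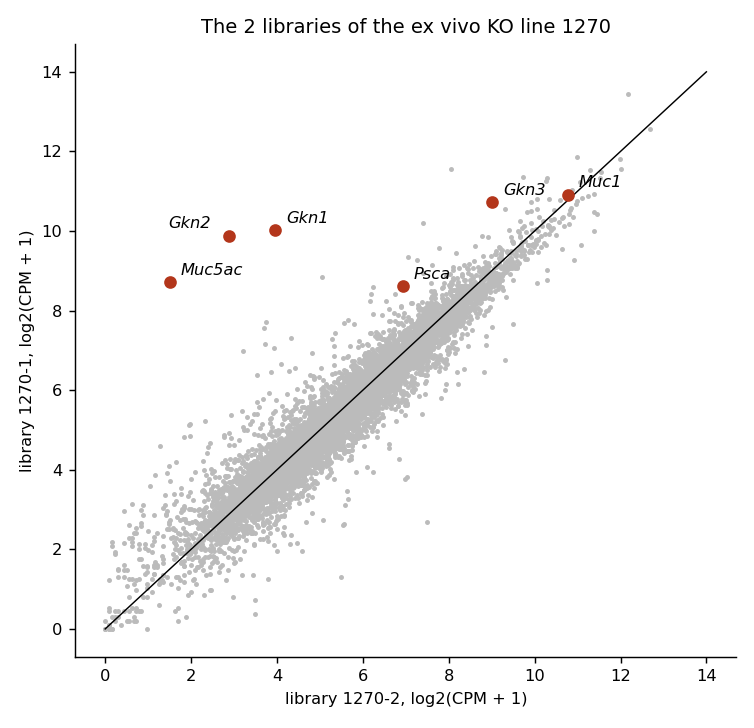
Level of 10480 genes in library 1270-1 (vertical axis) against library 1270-2 (horizontal axis), both of the ex vivo KO line, in log2(CPM + 1), with 6 pit cell genes in red and equal levels on the black line. Muc5ac, Gkn2 and Gkn1 lie farthest above the line, by 7.21, 6.99 and 6.06, and Muc1 lies on it at a difference of 0.14.

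The other members followed only in part. Gkn3 read 1700 and 514 CPM, a log2 difference of 1.72 (rank 85), and Psca read 391 and 121 CPM, a difference of 1.68 (rank 94). Muc1 read 1928 and 1746 CPM, a difference of 0.14 (rank 2871). Tff1 had 9 counts and 0.

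Other genes that separated the 2 libraries, named after their values were seen, included Dpcr1, which encodes a mucin-like protein, at 461 and 32.0 CPM, and Krt20, a keratin of surface epithelium, at 33.8 and 2.86 CPM. The genes farthest in the opposite direction were Slc16a3, a lactate transporter (5.39 and 179 CPM), the collagen hydroxylases Plod2 (1.48 and 43.8 CPM) and P4ha1 (12.6 and 126 CPM), and Bnip3, a mitophagy receptor (13.0 and 130 CPM). These 4 are known to be induced by low oxygen. Summed chief cell markers were 1870 CPM in 1270-1 and 333 CPM in 1270-2, against 27.2 to 760 CPM in the 15 libraries of the lines other than 794 and 1270. Among those 5 markers, Gif (intrinsic factor) and Pgc (pepsinogen C) gave most of the sum, Bhlha15 was not higher in 1270-1 (27.2 and 33.3 CPM), and Chia1 was at 0 in both. Summed proliferation genes were 1202 and 2184 CPM, all 8 being lower in 1270-1. The part of these genes in the difference in pit cell transcripts was not tested.

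Line 794 had the pit cell products in other company. Its summed chief cell markers were 37.7 to 65.4 CPM, and Gif read 2.82 CPM. Its summed neck cell markers, 2371 to 2645 CPM, were above the 722 to 2275 CPM of the 15 libraries of the other lines and the 527 and 445 CPM of line 1270. Agr2, the disulfide isomerase needed for folding of secreted mucins, read 1819 CPM in line 794 and 219 CPM in line 1270. The neck cell sum was thus high in line 794 and low in line 1270, and Agr2 was lower than in line 1270 only in line 1269 (92.9 CPM). Among the summed neck markers Muc6 was highest in line 794, but Tff2 was higher in lines 300, 650 and 752 than in line 794. Over KO libraries the summed neck cell markers ran from 445 to 2645 CPM and over WT libraries from 722 to 2275 CPM, with Lyz2 at 0 in 17 of the 20 libraries. The chief cell sums ran from 37.7 to 1870 CPM in KO and 27.2 to 760 CPM in WT libraries. The part of these cell types in the levels of the pit cell genes was not tested. In bulk samples, fewer cells of a type and less RNA per cell cannot be told apart.

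Muc5ac was the gene that differed most between sister libraries in lines 1269 and 752 too, but not in the remaining lines. Of the 10480 genes it had the widest range over libraries in 3 of the 8 lines, namely 1270, 1269 and 752, and rank 11 in line 565. In line 1269 its libraries had 202 and 13 counts (15.6 and 1.07 CPM), a range of 3.00 in log2(CPM + 1) where the median gene had 0.24. In line 752 they had 2, 177 and 14 counts, a range of 3.63 where the median gene had 0.51. The 2 counts of library 752-1 are under the 3 that a count of 0 allows. Gkn2 moved with Muc5ac in line 1269, with 41.7 and 13.5 CPM. In line 752 it read 11.4, 31.3 and 29.5 CPM, so that the library with 14 Muc5ac counts was near the one with 177. Gkn1 moved little, with 64.7 and 54.8 CPM in line 1269 and 30.4, 36.6 and 41.9 CPM in line 752.

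**Figure D4:**
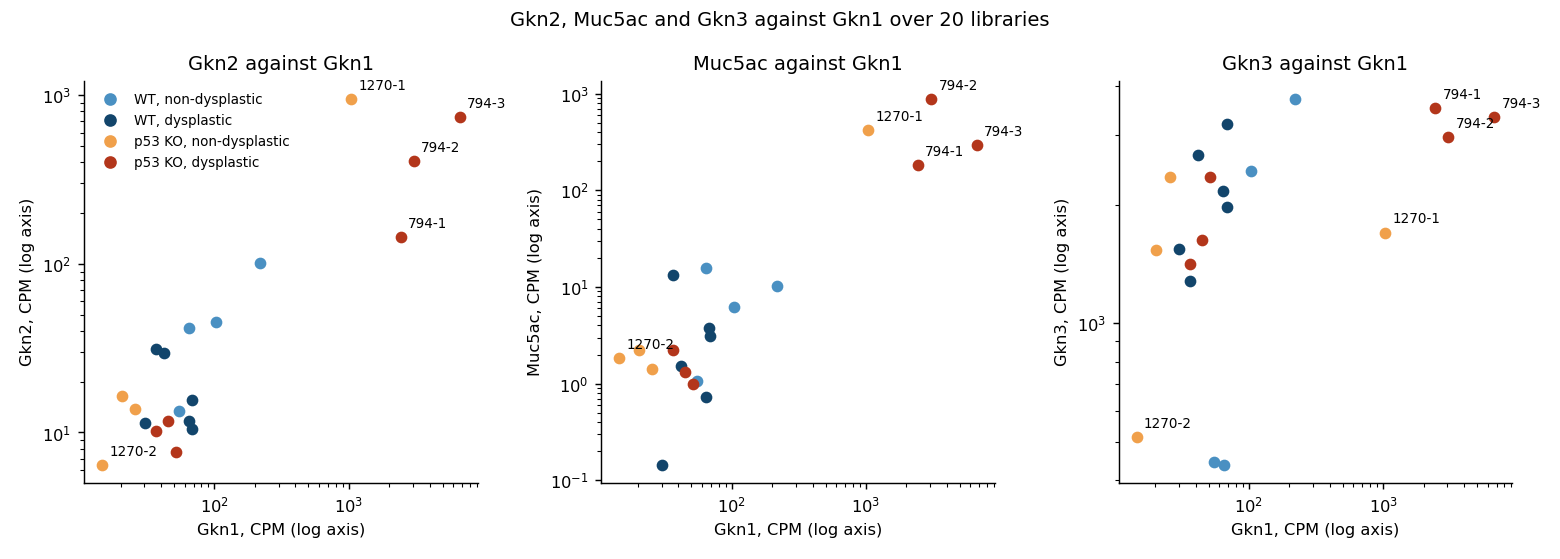
Gkn2, Muc5ac and Gkn3 (vertical axes, CPM, logarithmic) against Gkn1 (horizontal axis, CPM, logarithmic) in 20 libraries, coloured by genotype and dysplasia, with the libraries of lines 794 and 1270 named. The 3 libraries of line 794 and library 1270-1 are apart from the other 16 for Gkn1, Gkn2 and Muc5ac, but not for Gkn3.

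Over the 8 lines, Pearson's r of log2(CPM + 1) was 0.90 between Gkn1 and Gkn2, 0.97 between Gkn2 and Muc5ac and 0.94 between Gkn1 and Muc5ac, and 0.71, 0.86 and 0.60 over the 6 lines left without 794 and 1270. Gkn3 had an r of 0.30 with Gkn1 and 0.09 with Gkn2, although the 3 genes are adjacent. These are descriptions over lines that share libraries, depth and scaling.

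Among 10457 genes the one most alike to Gkn1 was Bche, encoding butyrylcholinesterase (r = 0.99, from 11.0 to 38.6 CPM), followed by the ubiquitin ligase gene Siah2 (0.99) and Fkbp9 (0.97). Muc5ac was nearest to Bche, Rbm39 and Gkn2 (each 0.97), and Gkn2 to Muc5ac (0.97), Siah2 and Tcea3 (both 0.94). Without lines 794 and 1270 the r of Bche was 0.94 with Gkn1 and 0.78 with Muc5ac. Gkn3 was nearest to Fuk, encoding fucokinase (0.97), Srpr, a subunit of the receptor that docks ribosomes to the endoplasmic reticulum (0.96), and Npdc1 (0.95). Muc1 was nearest to Os9, a lectin of the endoplasmic reticulum (0.99), Glul, glutamine synthetase (0.98), and Anks3 (0.97). Psca was nearest to Glrx5 (0.97), Lsm11 and Tfam (both 0.96). Without the 6 libraries that stood apart, several of these genes were no longer near the top of the order: Lsm11 (0.56) and Tfam (0.78) for Psca were at rank 1483 and 392, Anks3 (0.81) for Muc1 at 345, Siah2 at 119 for Gkn2 and 47 for Gkn1, and Fuk (0.86) for Gkn3 at 67. Bche stayed at rank 1 for Gkn1, Muc5ac at rank 1 for Gkn2 and Os9 at rank 1 for Muc1.

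Gkn3 was also set beside single genes of the neck cell and of mucin folding, a choice made after their values were seen. Its r over the 8 lines was 0.95 with Agr2, 0.84 with Tff2 and 0.56 with Muc6, and Gkn3 and Agr2 ordered the 8 lines in the same way (Spearman's rho 1.00). Over the same lines Gkn1 had an r of 0.48 with Agr2, 0.00 with Tff2 and 0.62 with Muc6. Agr2 read 896 (300), 92.9 (1269), 596 (565), 505 (752), 506 (650), 219 (1270), 1819 (794) and 298 CPM (801). Tff2 read 1123, 15.1, 208, 828, 1005, 42.1, 591 and 121 CPM in the same lines.

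Further genes of the pit cell were examined as a list. Of 16 listed, 15 were in the table and 13 were tested, and edgeR called none in either comparison. The most abundant were Cldn18, the gastric claudin of tight junctions (693 to 1491 CPM over the libraries), Ctse, the aspartic protease cathepsin E (631 to 1496 CPM), and Anxa10, an annexin of gastric epithelium (575 to 2162 CPM). In the dysplasia comparison 10 of the 13 were lower and 3 were higher, where 46.2% of all genes were higher, with a median log2 fold change of -0.37 against -0.02 for all genes. DESeq2 called 2 of the 13, Sytl2 and Cldn18, and limma-voom called Sytl2, each against 1.14% of all genes. Sytl2 encodes a linker of secretory granules to the plasma membrane. It was named after its values were seen, and read 148 (300), 132 (1269), 112 (650) and 204 CPM (1270) in the non-dysplastic lines and 61.1 (565), 75.7 (752), 49.5 (794) and 58.6 CPM (801) in the dysplastic lines, a log2 fold change of -1.29 ± 0.21 (SE, edgeR adjusted p 0.42). Its groups did not overlap, as those of Psca did not and those of 3.06% of all genes did not. Its r with Psca over the 8 lines was 0.90. The shared split of the lines by dysplasia enters that r, which is thus no separate result. In the KO comparison 9 of the 13 were lower, with a median of -0.09.

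Genes that fold and glycosylate mucins had their highest sum in line 794, where Muc5ac was highest too. Over the 8 lines, however, the r of Muc5ac was 0.27 with Agr2 and -0.03 with Gcnt3. Of 27 listed, 23 were tested and edgeR, DESeq2 and limma-voom called none in either comparison, with medians of 0.13 for KO and 0.15 for dysplasia. The most abundant were Agr2, the mucin-type glycosyltransferase gene Gcnt3 (92.4 to 854 CPM) and B3gnt3 (196 to 425 CPM). Their sum was 4970 to 6187 CPM in line 794, 2866 and 2006 CPM in the libraries of line 1270 and 1801 to 3826 CPM in the other 15. Of 10 other mucins listed, 8 were in the table and 5 were tested, and edgeR called none. Muc6, the mucin of neck and antral gland cells, read 258 CPM in line 794 and 67.2 to 172 CPM in the other lines, and Muc4, a membrane mucin, 16.2 to 54.8 CPM. Muc2 and Muc5b, which flank Muc5ac on chromosome 7, were each at most 4.44 CPM in every line, and both were highest in line 794 (4.41 and 4.44 CPM). Muc20, a membrane mucin, was the 1 gene of this list that limma-voom called higher in dysplastic lines, against 1.14% of all genes called either way, from at most 0.91 CPM in the non-dysplastic lines to between 0.92 and 3.98 CPM in the dysplastic lines.

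Transcription factors of the gastric surface were examined as a list too. Of 21 listed, 20 were tested and edgeR, DESeq2 and limma-voom called none in either comparison, with medians of 0.02 for KO and -0.05 for dysplasia. Elf3, an epithelial ETS factor, ran from 598 to 735 CPM over the lines, Foxq1, a forkhead factor needed for Muc5ac in mouse pit cells, from 266 to 413 CPM and the ETS factor Ehf from 236 to 359 CPM. Foxq1 was lowest in line 794. Gata4, a GATA factor of the stomach named after its values were seen, read 312 CPM in line 1270 and 136 to 201 CPM in the other lines, and 318 CPM in both libraries of line 1270. Klf4, a factor of mature surface epithelium named likewise, read 264 and 96.5 CPM in libraries 1270-1 and 1270-2 and 242 CPM in line 794. With no values given for the other lines, these do not show that Klf4 followed the pit cell genes.

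Levels of genes beside Psca, Muc1 and Tff1 are given next. Within 3 genes of Psca on chromosome 15, Jrk read 14.8 to 20.7 CPM, Them6 at most 35.1 CPM and Arc 1.79 to 10.7 CPM over the lines, and Slurp1 and Lypd2 were at most 1.56 and 0.23 CPM. Beside Muc1 on chromosome 3, Thbs3 and Trim46 were at most 5.22 and 11.4 CPM, while Krtcap2 read 109 to 210 CPM and Mtx1 41.0 to 54.3 CPM. Beside Tff1, Tmprss3 and Ubash3a were at most 0.10 and 0.05 CPM.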

How the data were processed

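Messenger RNA was measured in 20 libraries of 8 organoid lines. Per the labels' protocols, libraries were made with an mRNA kit from column-purified total RNA, and the tools named in the submitters' processing notes are bcl2fastq and STAR 2.5, with build mm9. The authors deposited raw gene counts, named by symbol and not normalized. For the gene counter, the annotation and the use of strand, the text given is silent (not given in the sources used here). Reads of overlapping genes therefore cannot be told apart. Columns of no sample numbered 0.

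Libraries were summed per line, since libraries of a line share every label. In R 4.3.3, edgeR 4.0.16 (filterByExpr, TMM, robust quasi-likelihood, 1 mean per combination of genotype and dysplasia, 4 residual degrees of freedom) was the main test, with Benjamini-Hochberg adjustment over all genes and a threshold of 0.05. DESeq2 1.42.0 on line sums and limma 3.58.1 (voom, lines as correlated blocks, correlation 0.22) were alternatives. EdgeR's procedure was tested on simulated data. An SE is the log2 fold change divided by the square root of F. A pseudocount of 1 was used for log2(CPM + 1). Exon lengths are unions of GENCODE exons, matched by symbol.

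The members and lists were chosen with earlier results of these data known. The text names the 7 members, for each member with a mean of at least 5 CPM the 3 genes most alike over lines, from each list the called genes or up to 3 of highest mean, listed neighbours within 3 genes, and Trp53. Other genes were chosen after their values were seen, among them those that separated the libraries of line 1270. Of the listed neck, chief, parietal, immune, stromal, intestinal, squamous and proliferation markers, those in the table were summed. Leaving out library 1270-1, library 1270-2, or lines 794 and 1270 was chosen after seeing the data.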

Additional observations from a re-analysis of the deposited data

Results flagged for a closer look

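Among groups of 4 lines, 28 comparisons of a member's extreme line with the others were made, and in 8 the gap to the nearest line, as a share of the group's whole range, was above Dixon's 95% critical value. Chance flags about 1 in 20 such groups only where levels are normally distributed. The levels were CPM without a logarithm, and for skewed levels flags at the high end can be more frequent. The groups also share lines and members, so the 8 are not independent. Line 794 stood apart at the high end among KO lines for Gkn1 (0.882) and among dysplastic lines for Gkn1 (0.991), Gkn2 (0.966) and Muc5ac (0.992). Line 1270 stood apart at the high end among non-dysplastic lines for Gkn2 (0.857) and Muc5ac (0.964). For Muc1 the low lines were flagged, with line 794 at 1188 CPM against 1778 CPM in the nearest KO line (0.968) and line 1269 at 1220 CPM against 1736 CPM in the nearest non-dysplastic line (0.898).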

How the results depend on the processing

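Over 20 other settings, 12 member fold changes gave 240 values, of which 202 kept their direction and side of the threshold, 3 came to pass it and 35 changed sign without passing it. The 3 were Psca in the dysplasia comparison, called by DESeq2 (-1.55), limma-voom (-1.50) and the replicate block (-1.68). Psca kept its direction under every setting in both comparisons, between -1.98 and -1.26 for dysplasia and between -0.90 and -0.24 for KO. The count of members called in the dysplasia comparison was thus 1 with DESeq2, 1 with limma-voom and 1 with the replicate block. Of all genes, edgeR's 0 became 74, 63 and 51 in the KO comparison with DESeq2, limma-voom and the replicate block, and between 0 and 1 without each line in turn (1 without line 801). For dysplasia it became 153, 144 and 101, 18 with only libraries numbered 1, and 1 with sex as a term.

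The replicate block was a term for library number in the limma-voom fit. Libraries that share a number across lines had a median correlation of deviations of 0.12 (from -0.89 to 0.87), against -0.00083 for different numbers, so the number was not taken to pair libraries. The block changed no other member's call.

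In the KO comparison, leaving out lines 794 and 1270 turned Gkn1 (-1.26), Gkn2 (-1.25) and Muc5ac (-1.71). Gkn3, near 0, turned with limma-voom (0.22), the replicate block (0.22), without the 6 libraries that stood apart (0.15), with libraries numbered 1 (0.34), with sex (0.25) and without library 1270-2 (0.15), and ranged from -0.41 to 0.98 without each line. Muc1 turned without those 6 libraries (0.0086), with libraries numbered 1 (0.025) and without lines 794 and 1270 (0.086), and ranged from -0.21 to 0.092 without each line. In the dysplasia comparison Gkn1 was -0.063 without lines 794 and 1270 and from -1.78 to 2.65 without each line. Gkn2 was 1.37 without library 1270-1 and from -2.93 to 1.12 without each line. Muc5ac was -2.92 with libraries numbered 1, -1.09 with sex, -0.50 without library 1270-2 and -0.65 without lines 794 and 1270, and from -3.47 to 2.92 without each line. Muc1 was -0.0076 with limma-voom and -0.041 with libraries numbered 1, and from -0.11 to 0.20 without each line. The causes were not tested. Depth limits Tff1, at 2 to 15 counts per line, and Muc5ac in single libraries, with 2 counts in 752-1, 6 in 801-3 and 9 in 565-1.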
